A study of Mus musculus with 8 samples.

Results

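The osteocyte marker genes Sost, Mepe, Dmp1, Phex and Pdpn were followed in skeletal cells sorted from mouse femoral fracture calluses and not cultured. All 5 genes had at least 1 probe set that the platform annotation assigns to 1 gene symbol, and together they held 9 of 45037 probe sets that are not controls. Skeletal stem cells (SSCs) were sorted as CD45-Ter119-Tie2-CD51+6C3-Thy1-CD105- cells that carry CD200, and bone-cartilage-stromal progenitors (BCSPs), which arise from them, as CD45-Ter119-Tie2-CD51+6C3-Thy1- cells that carry CD105. There were 4 experiments, each with an array of SSCs and an array of BCSPs, from male C57/Bl6 mice aged 10 to 12 weeks. All had a pinned bicortical fracture, and 10000 cells were sorted for each population and experiment. The labels give day 7 after fracture, while the study's methods give a later day. Unfractured bone, sorted osteocytes and osteoblasts were not analysed here.

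Osteocytes are osteoblasts that have become buried in the matrix they made. Early in that passage the cell grows dendrites and carries podoplanin (Pdpn, also called E11). As the matrix mineralizes it makes Phex, an endopeptidase of the cell surface, and the matrix phosphoproteins Dmp1 and Mepe, which act on mineralization and phosphate balance. The mature osteocyte secretes sclerostin (Sost), which binds Lrp5 and Lrp6 and blocks Wnt signalling to osteoblasts. Several of these genes are not limited to osteocytes, since osteoblasts also use Phex and Dmp1, and lymphatic endothelium and many fibroblasts carry Pdpn.

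The values are activity scores, which place each probe set within its own range over a large collection of public mouse arrays. A score of 0 is the threshold set for that probe set, and the scale runs about as far below 0 as above it, with 100 as the highest score in the table. The score is neither a log value nor an amount of RNA, and it cannot be compared between genes as a level of mRNA. Of all probe sets, 29.0% to 31.0% scored above 0 on each array. As a background level for each array, the 95th percentile of 45 probe sets of 29 genes chosen as specific to other tissues was taken, which lay between -20.4 and -3.85. The genes of the gated-out markers Thy1, Enpep, Tek and Ptprc were below 0 on every array, while Eng, which encodes CD105, scored -45.6 ± 14.4 (SD, n = 4) in SSCs against 12.8 ± 24.9 (SD, n = 4) in BCSPs. Eng was above 0 on 2 arrays, both of BCSPs, its other probe set was on none, and its difference did not pass limma after adjustment. Cd200 was high in both populations, with means of 97.5 in SSCs and 96.6 in BCSPs, and Itgav, which encodes CD51, had 44.5 and 43.4. The other probe sets of Itgav were above 0 on at most 1 array. In a bulk sample, fewer cells of a type and less RNA per cell cannot be told apart.

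Phex and Dmp1 were high in their own range in both populations, and Pdpn, Mepe and Sost were below 0 on every array. With each gene read from its highest probe set, Phex and Dmp1 scored above 0 on all 8 arrays, as did 25.0% of all genes measured this way. Pdpn, Mepe and Sost were above 0 on none, as were 43.5% of all genes. Of 9 measured genes that every cell uses, 4 were above 0 on all 8 arrays and 1, Sdha, on none, with a mean of -43.5. A score below 0 or under the background level therefore does not show that the mRNA was absent. Over all 9 probe sets of the 5 genes, 3 were above 0 on all 8 arrays (16.1% of all probe sets) and 5 on none (49.5% of all probe sets). The remaining one, of Phex, was above 0 on 6 arrays.

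**Figure D1:**
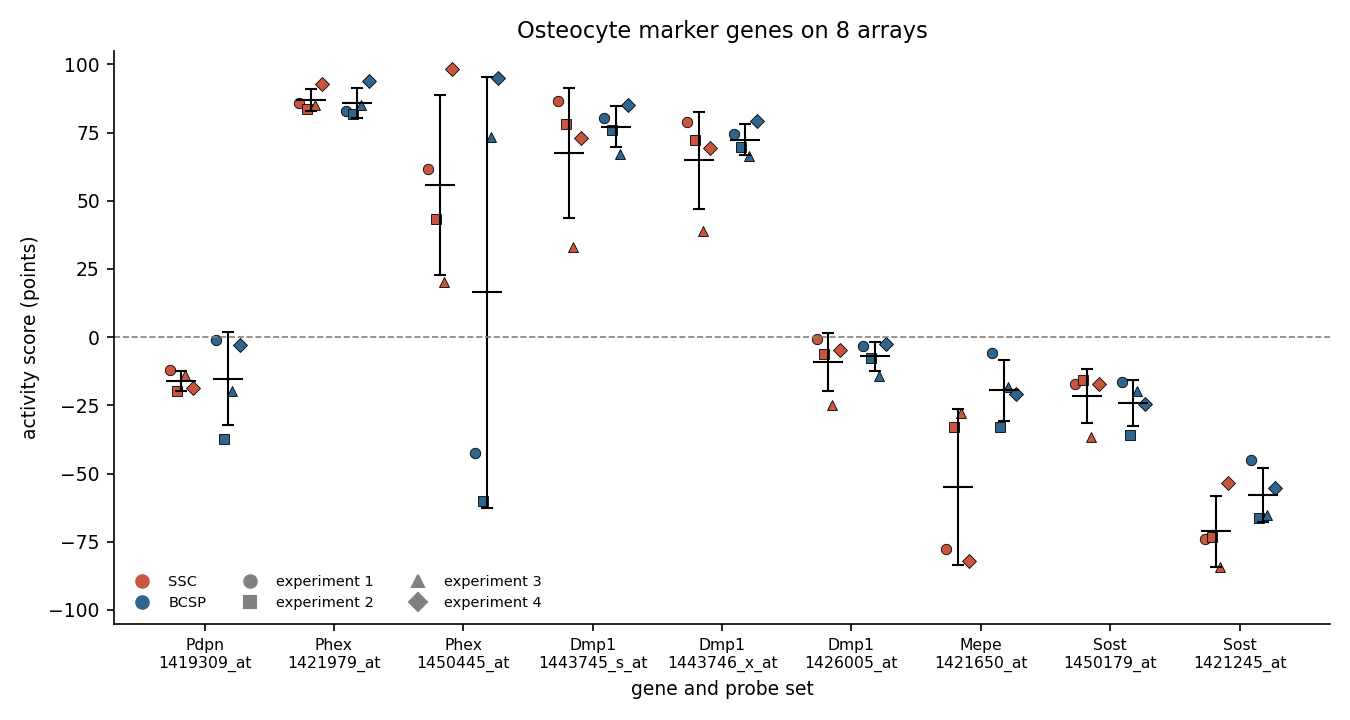
Activity score in points (vertical axis) of the 9 probe sets of the 5 osteocyte marker genes (horizontal axis) on 4 SSC and 4 BCSP arrays; each symbol is an array, its shape gives the experiment, bars show mean ± SD and a dashed line the threshold of 0. The first Phex probe set lies between 81.8 and 94.0 on every array, the other spans -60.1 to 98.2, and Pdpn, Mepe, Sost and 1 Dmp1 probe set lie below 0.

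Within its own range Phex scored the highest of the 5, and by its leading probe set (1421979_at) it varied the least. The 4 SSC arrays scored 85.9, 83.8, 84.9 and 92.7 in experiments 1 to 4, and the 4 BCSP arrays scored 82.9, 81.8, 84.9 and 94.0. Both arrays of experiment 4 stood above the other 6, and the populations overlapped. On each array, 94.4% to 97.6% of all probe sets scored lower than it. Their range over the 8 arrays was 12.2 points, against a median range of 58.1 points over all probe sets, and only 3.09% of probe sets had a smaller one. The mean was 86.8 ± 4.03 (SD, n = 4) in SSCs against 85.9 ± 5.55 (SD, n = 4) in BCSPs, a difference (SSC minus BCSP) of 0.91 points with a 95% confidence interval of -7.10 to 8.91 (limma, adjusted p = 1). Its direction turned without the SSC array of experiment 4 (-1.06) or the BCSP array of experiment 1 (-0.10) or 2 (-0.46).

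The other Phex probe set (1450445_at), annotated from the same sequence record, did not follow the first. It scored 61.8, 43.4, 20.2 and 98.2 on the SSC arrays and -42.4, -60.1, 73.4 and 95.1 on the BCSP arrays of experiments 1 to 4. In experiments 1 and 2 the SSC array was above 0 and the BCSP array below it, in experiment 3 the BCSP array was the higher, and in experiment 4 both were near the upper limit. The difference (SSC minus BCSP) was 104 points in experiment 1, 103 in experiment 2, -53.2 in experiment 3 and 3.11 in experiment 4. Its range of 158 points over the 8 arrays was wider than that of 99.3% of all probe sets. The mean difference of 39.4 points (95% confidence interval -39.6 to 118, limma, adjusted p = 1) was within the spread between arrays, and an exact two-sided permutation test gave p = 0.40 over all 70 assignments of 4 against 4 arrays. Leaving out 1 array moved the difference to as little as 13.8 points, when BCSPs of experiment 2 were dropped, and as much as 65.6 points, when BCSPs of experiment 4 were. Phex was therefore above 0 on all 8 arrays by 1 probe set and on 6 by the other, and averaging both gave a difference of 20.1 points.

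Dmp1 was high by the pair of probe sets designed from one sequence record and just below 0 by the remaining one. The leading probe set (1443745_s_at) scored 86.8, 78.0, 33.0 and 73.0 on the SSC arrays and 80.4, 76.0, 67.3 and 85.1 on the BCSP arrays of experiments 1 to 4. The second (1443746_x_at) scored 78.8, 72.3, 38.7 and 69.5 on the SSC arrays and 74.4, 69.7, 66.3 and 79.2 on the BCSP arrays. The SSC array of experiment 3 was the lowest on both, and within each population experiment 3 was the lowest. By Affymetrix naming, the suffixes s and x mark probe sets whose probes can also match other transcripts.

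The remaining Dmp1 probe set (1426005_at) scored between -24.9 and -0.83 and was below 0 on every array, although on 6 arrays it exceeded the background level. The leading probe set exceeded it by 57.9 to 87.8 points on the same array. On this probe set, too, experiment 3 gave the lowest array of each population, at -24.9 in SSCs and -14.2 in BCSPs. Such a split is not rare on these arrays: of 9010 genes with more than 1 probe set, 1391 (15.4%) had a probe set above 0 on all 8 arrays and another above 0 on none.

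Dmp1 was not distinguishable between SSCs and BCSPs. The means of the leading probe set were 67.7 ± 23.8 (SD, n = 4) in SSCs against 77.2 ± 7.59 (SD, n = 4) in BCSPs, with a difference of -9.52 points (95% confidence interval -33.2 to 14.2, limma, adjusted p = 1). The difference was 6.31, 2.05, -34.3 and -12.1 points in experiments 1 to 4, and without the SSC array of experiment 3 it turned to 2.05 points. The means of the experiments spanned 33.5 points, while the SSC and BCSP arrays of an experiment differed by 13.7 points on average. The 3' minus 5' score of actin was 59.6 points (SSCs) and 64.9 points (BCSPs) in experiment 3 and 23.1 to 44.2 points on the others. It is a difference between the activity scores of control probe sets, not a ratio of signals, and no direct measure of RNA integrity. The same measure for Gapdh did not single out experiment 3, at 54.7 (SSCs) and 49.1 points (BCSPs) there and 21.3 to 71.9 points on the others, with the highest on the BCSP array of experiment 4, which had the highest Dmp1 score of its population. The part of either in the Dmp1 scores was not tested.

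Mepe scored lower in SSCs in each experiment, without passing the test. Its probe set (1421650_at) scored -77.6, -33.0, -27.7 and -81.9 on the SSC arrays and -5.66, -32.9, -18.2 and -20.9 on the BCSP arrays of experiments 1 to 4. The SSC arrays of experiments 1 and 4 stood far below the rest, and the populations overlapped, since the SSC array of experiment 3 lay above the BCSP array of experiment 2. The means were -55.1 ± 28.6 (SD, n = 4) in SSCs against -19.4 ± 11.2 (SD, n = 4) in BCSPs. The difference (SSC minus BCSP) was -71.9, -0.11, -9.56 and -61.1 points in experiments 1 to 4, so the arrays of experiment 2 were nearly equal. Over all probe sets, 7.24% were lower in SSCs in 4 of 4 experiments.

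The mean difference for Mepe of -35.7 points (95% confidence interval -70.5 to -0.83) had an unadjusted p of 0.0458 and an adjusted p of 1 from limma. An unadjusted p under 0.05 was found for 2.40% of all probe sets, and an adjusted p under 0.05 for 0%. An exact two-sided permutation test over 70 assignments gave p = 0.0571, and the exact test that swaps arrays inside each experiment gave p = 0.125, which is the lowest value its 16 swaps can reach. All Mepe scores were below 0, and 1 of 8 exceeded the background level. The 29 background genes themselves had a median score of -60.9 in SSCs against -46.6 in BCSPs, and the median difference (SSC minus BCSP) was -6.56 points among them and -0.997 over all genes. The part of that shift in the Mepe difference was not tested.

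Sost was below 0 on every array by both of its probe sets, which are annotated from one sequence record. The leading one (1450179_at) scored -17.2, -15.9, -36.4 and -17.1 on the SSC arrays and -16.4, -35.8, -19.6 and -24.6 on the BCSP arrays of experiments 1 to 4. The SSC array of experiment 3 and the BCSP array of experiment 2 were the lowest, and the populations overlapped. The means were -21.6 ± 9.88 (SD, n = 4) in SSCs against -24.1 ± 8.49 (SD, n = 4) in BCSPs, with a difference of 2.49 points (95% confidence interval -24.5 to 29.4, limma, adjusted p = 1). That direction turned without the BCSP array of experiment 2 (-1.42) and with the mean of both probe sets (-5.44).

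The second Sost probe set (1421245_at) was lower, at -73.9, -73.4, -84.3 and -53.3 on the SSC arrays and -45.0, -66.2, -65.1 and -55.1 on the BCSP arrays. Its difference of -13.4 points (95% confidence interval -33.9 to 7.15, limma, adjusted p = 1) went the other way from that of the first. An exact two-sided permutation test gave p = 0.171 for it and p = 0.629 for the first. The first exceeded the background level on 1 array and the second on none.

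Pdpn, the earliest of the markers along osteocyte formation, was below 0 on every array. Its only probe set (1419309_at) scored -11.9, -19.7, -13.9 and -18.8 on the SSC arrays and -0.94, -37.2, -19.7 and -2.89 on the BCSP arrays of experiments 1 to 4. The 4 SSC arrays lay within the range of the 4 BCSP arrays. The means were -16.1 ± 3.77 (SD, n = 4) in SSCs against -15.2 ± 16.9 (SD, n = 4) in BCSPs, with a difference of -0.88 points (95% confidence interval -30.6 to 28.8, limma, adjusted p = 1), which changed sign without any one of 4 single arrays. Pdpn exceeded the background level on 3 of 8 arrays. Of 3 markers of lymphatic endothelium, Lyve1 and Prox1 were above 0 on no array and Flt4 on 1.

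**Figure D2:**
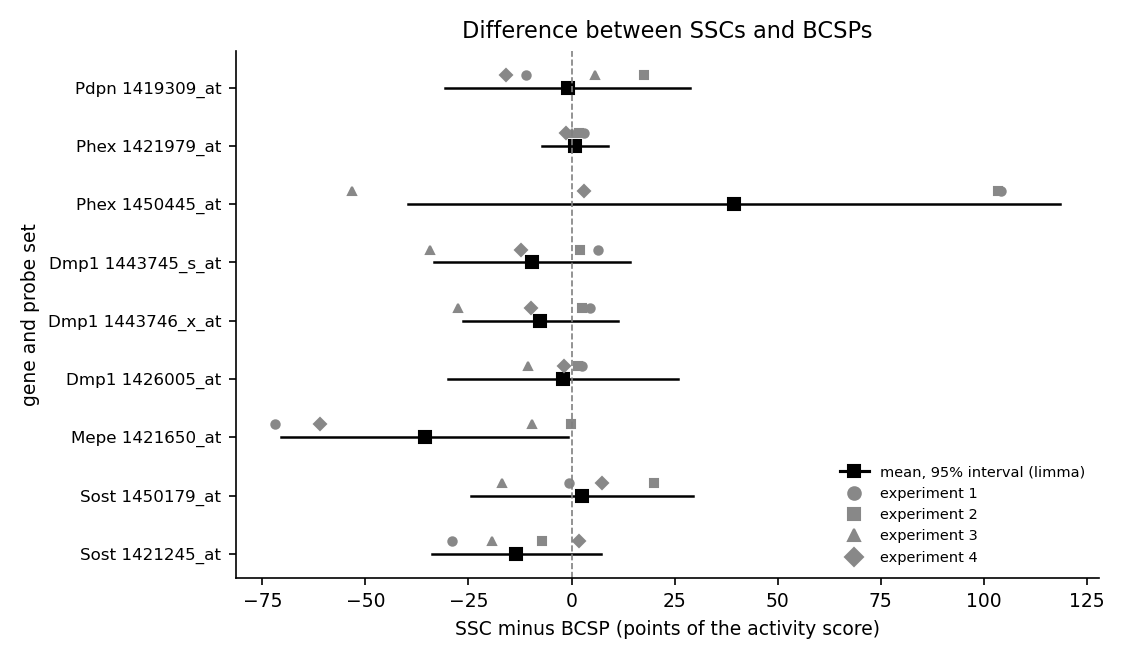
Difference between SSCs and BCSPs (SSC minus BCSP, horizontal axis, in points of the activity score) for the 9 probe sets (vertical axis); squares and lines give the mean and the 95% confidence interval from limma, and grey symbols the difference in each experiment. The interval holds 0 for every probe set but that of Mepe (-70.5 to -0.83), and the experiments of the second Phex probe set spread from -53.2 to 104. These intervals ignore the pairing by experiment. With the experiment as a block, that of Mepe held 0 too (-73.5 to 2.24).

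Of the 9 probe sets, 0 passed limma between SSCs and BCSPs after adjustment over all probe sets and 1, that of Mepe, had an unadjusted p under 0.05. With the methods' t-test, 2.43% of all probe sets had an unadjusted p under 0.05 and 0% passed after adjustment. A block for experiment gave an unadjusted p under 0.05 for 5.04% and a pass for 0%, and Mepe stood at an unadjusted p of 0.0610. On 0 of the 9 probe sets did the SSC and BCSP arrays separate without overlap, as 1.43% of all probe sets did. The exact tests for single probe sets, 9 in all, gave p-values from 0.0571 to 0.971, where 4 arrays against 4 allow no p below 0.0286.

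Dmp1 and Mepe belong to the SIBLING genes, which encode proteins of bone and tooth matrix and lie side by side on chromosome 5 in the order Dspp, Dmp1, Ibsp, Mepe and Spp1. Of the 4 that could be measured, the neighbours did not have like scores. Dmp1 and Ibsp, which encodes bone sialoprotein, had mean scores over the 8 arrays of 72.4 and 87.7, while Dspp and Mepe on either side of them had -26.0 and -37.2. Ibsp scored 87.0 ± 6.18 (SD, n = 4) in SSCs against 88.5 ± 3.55 (SD, n = 4) in BCSPs. Dspp, a gene of dentin, ran from -79.6 to 43.1 and was above 0 on 2 arrays, both of SSCs. Spp1 had no probe set of its own in the annotation and was not analysed here.

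Dmp1 had a mean score of 72.4 by its leading probe set, and Mepe had -37.2. The other Dmp1 probe sets had means of 68.6 and -8.05. Stretches of 250 bases before the start sites of both genes are shown because the leading probe sets lay on opposite sides of the threshold. They are from RefSeq on GRCm38.p6, written 5′ to 3′ along the plus strand on which both genes lie, with the core motif TGTGGT of Runx factors and its reverse complement ACCACA in capitals. They span chr5:104197325-104197574 (first start of Dmp1), chr5:104202367-104202616 (second start) and chr5:104325079-104325328 (Mepe).
Dmp1 first start: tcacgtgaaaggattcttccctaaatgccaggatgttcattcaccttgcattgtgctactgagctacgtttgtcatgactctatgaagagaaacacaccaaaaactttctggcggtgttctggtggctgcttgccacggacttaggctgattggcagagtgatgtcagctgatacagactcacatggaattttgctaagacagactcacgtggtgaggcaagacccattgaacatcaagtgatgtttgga
Dmp1 second start: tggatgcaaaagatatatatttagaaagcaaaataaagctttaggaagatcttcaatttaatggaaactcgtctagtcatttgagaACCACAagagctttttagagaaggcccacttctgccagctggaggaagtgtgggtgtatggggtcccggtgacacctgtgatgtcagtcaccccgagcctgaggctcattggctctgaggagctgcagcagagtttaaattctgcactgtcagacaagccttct
Mepe: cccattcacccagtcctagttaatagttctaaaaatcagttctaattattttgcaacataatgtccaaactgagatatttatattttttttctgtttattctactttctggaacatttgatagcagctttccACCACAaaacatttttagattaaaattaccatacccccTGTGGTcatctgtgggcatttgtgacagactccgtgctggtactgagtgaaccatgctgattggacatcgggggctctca
The motif was found 2 times before Mepe, 1 time before the second start of Dmp1 and not before the first. It was also not found in the same window of Sost, Phex or Pdpn. Of 32851 promoter windows of this length, 4614 held it on either strand, which is a share of 14%. A match to these letters is a description of the sequence and was not tied to the scores.

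Other genes linked to osteocytes were spread over the whole range of the score. Of 12 measured, 7 were above 0 on all 8 arrays and 3 on none, against 25.0% and 43.5% of all genes. The median score of the 12 was 37.7 (SSCs) and 40.6 (BCSPs), against -18.7 and -17.4 over all genes. The highest were Irx5, a homeobox factor, at 94.5 ± 5.66 (SD, n = 4) in SSCs against 92.7 ± 7.40 (SD, n = 4) in BCSPs, and Gja1, which encodes the gap junction protein connexin 43, at 92.7 ± 3.77 (SD, n = 4) and 92.8 ± 2.94 (SD, n = 4). The lowest were Hyou1, a chaperone of the endoplasmic reticulum, and Dkk1, a secreted Wnt inhibitor like Sost, both below 0 on every array. Tnfsf11, which encodes the osteoclast factor RANKL, scored 46.5 ± 8.01 (SD, n = 4) in SSCs against 36.3 ± 22.7 (SD, n = 4) in BCSPs. For Gja1 and Tnfsf11 other probe sets were above 0 on as few as 0 and 1 arrays.

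Fgf23, the phosphate-lowering hormone of mature osteocytes, had the smallest p of that list and did not pass. It scored -14.0, -67.2, 68.2 and -7.86 on the SSC arrays and 48.5, 28.2, 85.7 and 24.2 on the BCSP arrays of experiments 1 to 4. All 4 BCSP arrays were above 0 and only the SSC array of experiment 3 was, and each SSC array lay below the BCSP array of its experiment, by differences (SSC minus BCSP) of -62.5, -95.4, -17.5 and -32.1 points. Lower scores in SSCs in 4 of 4 experiments were found for 7.24% of all probe sets. The mean difference was -51.9 points (95% confidence interval -112 to 8.34), with an unadjusted p of 0.0834 and an adjusted p of 1 from limma, and an unadjusted p of 0.0103 and an adjusted p of 0.933 with the experiment as a block.

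Kl, which encodes Klotho, the co-receptor of Fgf23, went the other way. It scored 63.5, 65.3, -15.2 and 30.2 on the SSC arrays and 26.1, 12.4, -39.6 and -21.9 on the BCSP arrays. Each SSC array lay above the BCSP array of its experiment, as 5.43% of all probe sets did in 4 of 4 experiments, while the populations overlapped. The mean difference was 41.7 points (95% confidence interval -7.53 to 90.9), with an unadjusted p of 0.0879 and an adjusted p of 1 from limma, and 0.00382 and 0.933 with the experiment as a block. Its other probe set was above 0 on no array.

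**Figure D3:**
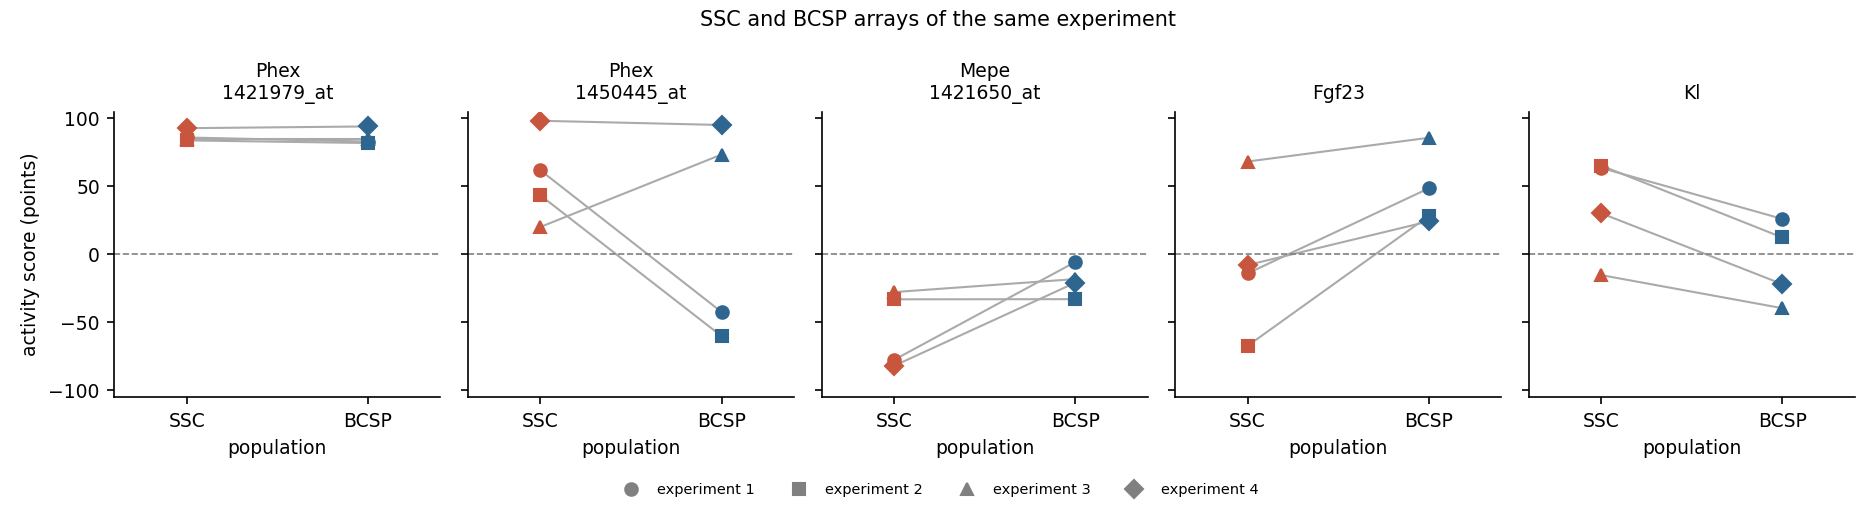
Activity score in points (vertical axis) on the SSC and BCSP arrays (horizontal axis) of each of 4 experiments, joined by lines, for both Phex probe sets, Mepe, Fgf23 and Kl; the dashed line is the threshold of 0. Mepe and Fgf23 are lower and Kl is higher on the SSC array in 4 of 4 experiments, and the second Phex probe set runs down in experiments 1 and 2 and up in experiment 3.

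Of 12 measured genes of phosphate and mineral control, Fgf23 included, 5 were above 0 on all 8 arrays and 1 on none. Over all genes these shares were 25.0% and 43.5%. Alpl, the tissue-nonspecific alkaline phosphatase of mineralizing cells, scored 89.5 ± 7.08 (SD, n = 4) in SSCs against 87.2 ± 6.84 (SD, n = 4) in BCSPs. Fam20c, the kinase that phosphorylates SIBLING proteins, scored 67.2 ± 22.4 (SD, n = 4) and 73.1 ± 10.4 (SD, n = 4). The lowest were Cyp27b1, which activates vitamin D, at -52.3 ± 16.6 (SD, n = 4) and -42.8 ± 15.4 (SD, n = 4), and the phosphate transporter Slc20a2, which was above 0 on 4 arrays.

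Of 5 measured bone matrix genes, Ibsp, Col1a1, Col1a2 and Sparc were above 0 on all 8 arrays by every probe set, and their median score was 89.8 (SSCs) and 89.7 (BCSPs). Sparc, which encodes osteonectin, and Col1a2, a chain of type I collagen, were the highest, at 97.6 ± 1.98 (SD, n = 4) and 97.0 ± 1.26 (SD, n = 4) in SSCs against 97.3 ± 2.05 (SD, n = 4) and 97.6 ± 0.26 (SD, n = 4) in BCSPs. The scale ends at 100, so there was little room above such scores. Of 5 measured osteoblast regulators and stage genes, 3 were above 0 on all 8 arrays, as were 25.0% of all genes. Sp7, the osteoblast transcription factor, scored 54.0 ± 6.57 (SD, n = 4) in SSCs against 55.8 ± 10.3 (SD, n = 4) in BCSPs, and Atf4 91.9 ± 4.52 (SD, n = 4) and 93.1 ± 3.03 (SD, n = 4). The other probe sets of Atf4 were above 0 on 7 and 4 arrays. Ifitm5, a gene of mineralizing osteoblasts, varied by experiment, with 91.2, 13.5, -35.9 and 19.1 on the SSC arrays and 91.8, 4.19, -31.9 and 37.9 on the BCSP arrays. The arrays of experiment 1 were the highest and those of experiment 3 the lowest in both populations, as for the leading Dmp1 probe set in SSCs. Msx2, a homeobox factor, was below 0 on every array.

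Along the sclerostin pathway, 3 of 8 measured genes were above 0 on all 8 arrays and 4 on none, against 25.0% and 43.5% of all genes. The receptor gene Pth1r, through which parathyroid hormone lowers sclerostin, scored 95.5 ± 3.50 (SD, n = 4) in SSCs against 94.5 ± 2.29 (SD, n = 4) in BCSPs. Mef2c, a transcription factor that drives Sost in osteocytes, scored 85.8 ± 8.16 (SD, n = 4) and 86.4 ± 6.56 (SD, n = 4) and was above 0 on all 8 arrays by each of 5 probe sets, while Sost itself was not above 0. Lrp6 scored 65.5 ± 10.2 (SD, n = 4) and 72.3 ± 6.58 (SD, n = 4), and its other probe set was above 0 on 2 arrays. Lrp5, which sclerostin also binds, and Sostdc1, a relative of Sost, were below 0 on every array.

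Of 7 measured partners of podoplanin, 5 were above 0 on all 8 arrays and 1 on none, against 25.0% and 43.5% of all genes. Rdx, which encodes radixin and links membrane proteins to actin, scored 85.5 ± 6.89 (SD, n = 4) in SSCs against 90.4 ± 4.41 (SD, n = 4) in BCSPs and was lower in SSCs in 4 of 4 experiments, by differences of -2.93, -5.83, -2.68 and -8.12 points. That direction in 4 of 4 experiments was found for 7.24% of all probe sets. The tetraspanin Cd9 scored 61.6 ± 10.2 (SD, n = 4) and 66.8 ± 16.2 (SD, n = 4). Lgals8, which encodes a galectin, was above 0 on 2 arrays. Clec1b, the platelet receptor for podoplanin, was below 0 on every array, at -59.1 ± 12.0 (SD, n = 4) in SSCs against -34.2 ± 9.68 (SD, n = 4) in BCSPs (unadjusted p = 0.0385, adjusted p = 1 from limma). The 6 lists held 12, 5, 12, 8, 5 and 7 measured genes, with Fgf23 and Cd44 shared between lists. No gene of these 6 lists passed limma between SSCs and BCSPs. The unadjusted p was under 0.05 for 1 gene, Clec1b, as it was for 2.40% of all probe sets. With the block for experiment it was under 0.05 for 4 genes, Kl, Fgf23, Clec1b (0.0314 from limma) and Rdx (0.0316 from limma), each with an adjusted p of 0.933. Over all probe sets that share was 5.04% with the block.

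**Figure D4:**
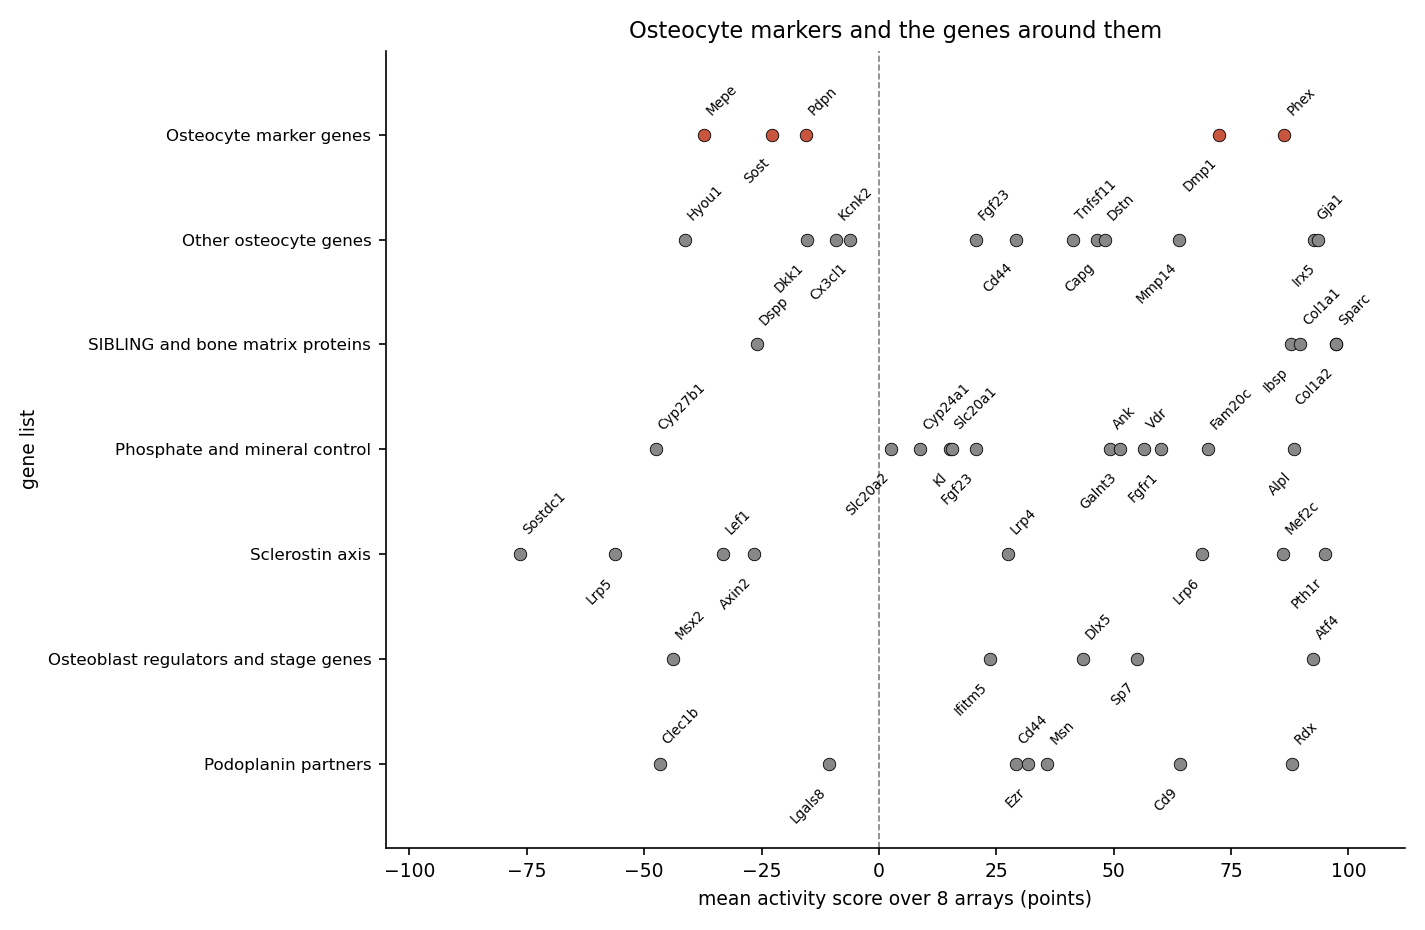
Mean activity score over the 8 arrays (horizontal axis, in points) of the 5 osteocyte marker genes (red) and of the genes of 6 related lists (grey), 1 row per list (vertical axis), each gene read from its highest probe set; the dashed line is the threshold of 0. Phex and Dmp1 lie at 86.4 and 72.4, below Ibsp at 87.7 and above Dspp at -26.0 in the row of bone matrix genes, and Pdpn, Sost and Mepe lie below 0.

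Genes of other cell types that a callus sort could hold mostly scored below 0. Of 6 osteoclast genes, Ctsk was above 0 on all 8 arrays, Oscar on 1 and the other four, Acp5, Calcr, Mmp9 and Ocstamp, on none. No gene of 5 for macrophages, 5 for endothelium or 4 for skeletal muscle was above 0 on any array, and of 2 erythroid genes Alas2 was on none and Hba-a1 on 5. The highest array median was -51.7 for the macrophage list and -46.1 for the endothelial list. Of 7 chondrocyte genes, 6 were above 0 on all 8 arrays, with a median score of 97.6 (SSCs) and 98.0 (BCSPs), and Ihh was above 0 on 7. Over all genes, 25.0% were above 0 on all 8 arrays and 43.5% on none.

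The 5 markers did not share a pattern over the 8 arrays. By Pearson correlation of the leading probe sets, Sost and Dmp1 were the most alike (r = 0.61) and Mepe and Phex the least (r = -0.37), over 8 arrays that share experiments by pairs. Many other genes came closer. The genes most like Phex were Igfbp5 (r = 0.98), which encodes a binding protein of insulin-like growth factors, Klhl24 (0.97) and the zinc transporter gene Slc39a8 (0.97). For Dmp1 they were Bckdk (0.98), Chst7 (0.98) and Lect2 (0.97), for Mepe Dpp4 (0.97), Gata4 (0.95) and C1ql2 (0.95), for Sost Il21r (0.97), Rspo2 (0.96) and Cpa5 (0.95), and for Pdpn Emx1 (0.93), Akap4 (0.93) and Chrna1 (0.92). Among these, Il21r, Cpa5, Lect2, Dpp4, Gata4, C1ql2, Akap4 and Chrna1 were above 0 on no array. Between 13 (Mepe) and 92 (Dmp1) genes of 18193 had a correlation over 0.9 with a marker. How many of 18193 genes would reach that by chance over 8 arrays was not tested.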

How the data were processed

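RNA of sorted cells was amplified in repeated rounds and hybridized to Affymetrix mouse arrays. The authors used Gene Expression Commons, which sets each array against a reference of public arrays with a StepMiner threshold per probe set, and the deposited value is the resulting activity score of 45101 probe sets. The summarisation of probes is not named in the labels or methods, and the number of arrays limits the precision. Scores were used as deposited, without 64 control probe sets. Of the others, 34945 had 1 gene symbol in the platform annotation, 932 several and 9160 none, and those with several or none were not named. For 18193 genes the probe set of highest mean stood for the gene, and every probe set of the 5 markers was kept.

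SSCs and BCSPs were compared over 45037 probe sets by limma (version 3.58.1, under R 4.3.3) without a block, with a trended prior and Benjamini-Hochberg adjustment at a threshold of 0.05. The fit was tested on simulated scores with independent arrays, so without the correlation that arrays of one experiment have here. Differences were added there only to probe sets of limited spread. Without the block, the p-values set the difference against the spread between arrays of a population, each from another experiment. With the block, or with swaps inside each experiment, they set it against how the SSC minus BCSP difference varies between experiments. The members, gene lists and tests were chosen with earlier results of these data known. From each list the 2 highest, the 2 lowest and the 2 genes with the smallest p could be named, and per marker the 3 genes with the most similar pattern. Other genes, of other cell types among them, were named after their values were seen. Of the lists, 13 genes had no probe set of their own. The labels number each experiment, so the numbers pair the arrays. For the BCSP array of experiment 2 title and description conflict, and the description was followed. After group means were taken off, the arrays of one experiment correlated at 0.399, 0.177, 0.572 and 0.183. Alternatives were the block, quantile normalization, centring, a filter on low scores, an untrended prior, array weights, the methods' t-test, averaging the probe sets of a gene, another threshold, and leaving out each array or, added after seeing the data, each experiment.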

Additional observations from a re-analysis of the deposited data

Results flagged for a closer look

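Over 18 groups of 4 arrays (9 probe sets in each population), 1 array stood apart from its group by Dixon's test, which chance gives for about 1 group in 20. The leading Sost probe set scored -36.43 on the SSC array of experiment 3, against -17.2 to -15.9 on the other SSC arrays. The BCSP array of the same experiment scored -19.6.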

How the results depend on the processing

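No probe set passed limma between SSCs and BCSPs under any of 20 alternatives run, with the experiment as a replicate block included (0 calls, and adjusted p from 0.933 to 0.998 for the 9 probe sets). The block leaves the differences as they are, and it changed no call. Mepe kept its direction under all 18 alternatives, from -47.5 to -23.6 points, with the first value without experiment 2 and the second without experiment 1. The differences close to 0 turned direction with single arrays. Leaving out 1 array gave -1.42 to 7.42 points for Sost, -15.9 to 2.05 for Dmp1, -1.06 to 3.61 for Phex and -8.22 to 3.87 for Pdpn, and leaving out 1 experiment gave -3.34 to 8.91, -14.8 to -1.26, 0.21 to 1.64 and -7.01 to 4.12. The second Phex probe set ran from 13.8 to 65.6 without 1 array and from 17.8 to 70.2 without 1 experiment. The other Dmp1 probe sets ran from -12.2 to 1.13 and from -4.85 to 3.17. The mean of both Sost probe sets gave -5.44 points. The filter on low scores removed Sost, Mepe, Pdpn and the lowest Dmp1 probe set and left the other differences as they were. The count of 3 probe sets above 0 on every array was 3 with quantile normalization and by the background level, and 4 with centring, where the third Dmp1 probe set joined. Most scores of Sost, Mepe and Pdpn lay under the background level of their array. So did every score of Sdha, a gene that every cell uses, at -52.9 to -35.0 points.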
